A study of Mus musculus with 32 samples.

Results

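The haematopoietic heptad is a set of 7 transcription factors, Runx1, Gata2, Tal1, Lyl1, Lmo2, Fli1 and Erg, that are known to occupy many of the same regulatory elements in blood stem and progenitor cells. The members were taken by symbol from that published set and not by any value measured here. The set itself and the gene lists below were chosen for study with earlier results of these data known. All 7 were found among the 45706 gene identifiers of each table, and all 7 were among the 15186 genes tested after a filter on low counts. RNA was measured by sequencing in haematopoietic stem and progenitor cells, the marrow fraction that lacks lineage markers and carries cKit and Sca1, from mice that model remission of acute myeloid leukaemia. Lethally irradiated C57BL/6J recipients carrying CD45.2 had received 800000 wild-type donor marrow cells (CD45.1+/2+) and 200000 partner cells (CD45.1), and the cells sequenced are labelled as the wild-type donor cells. In the AF9_Experienced groups the partner cells were homozygous for hMLL-AF9, a leukaemia fusion gene that doxycycline switches on, and for rtTA, its doxycycline-dependent activator, and in the naive groups they lacked hMLL-AF9 and were homozygous for rtTA only. Doxycycline was begun 6 to 8 weeks after transplantation in every group, given for 5 weeks and withdrawn for 4 weeks, after which mice were given either LPS (lipopolysaccharide, from the outer wall of Gram-negative bacteria, sensed by the receptor TLR4) or the vehicle PBS, and were killed 24 h later. Irradiation, transplantation, the rtTA partner cells and doxycycline were therefore shared by all 4 groups (naive or experienced, each after PBS or after LPS), with 4 biological replicate libraries in each. The labels do not state that replicates are separate mice. All p-values therefore rest on library-to-library spread alone, and this may be technical.

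Background on the factors is as follows. Tal1 and Lyl1 are related basic helix-loop-helix proteins that bind DNA at E-boxes with an E protein such as Tcf3, Tcf4 or Tcf12. Lmo2 does not bind DNA itself and, with Ldb1, bridges Tal1 or Lyl1 to a GATA factor. Gata2 is the GATA factor of stem and early progenitor cells and is also needed for mast cells, while the related Gata1 takes its place in erythroid and megakaryocytic cells. Runx1 binds with its non-DNA-binding partner Cbfb, and Fli1 and Erg are closely related ETS factors. Several members are also made in endothelium.

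Library totals ranged from 7.72e+06 to 2.23e+07 expected counts, and every member was well covered, with 358 expected counts in the library where a member was lowest (Lyl1) and 11356 where it was highest (Gata2). The sort markers Kit, Ly6a (which encodes Sca1), Cd34 and Ptprc were present in every group, with a summed level of 506 to 872 TPM (RSEM's level per gene, corrected for transcript length and library size) over the 16 libraries, and 7 or 8 of 11 lineage markers had a median under 1 TPM in each group. Libraries differed in technical measures that moved with some members. The slope of a library's expression on transcript GC content (log2 deviation from the mean of all libraries per 10 points of GC) lay between 0.08 and 0.23 in naive PBS, but reached -0.25 in experienced PBS, -0.40 in naive LPS and -0.52 in experienced LPS. The lowest slopes belonged to experienced LPS library 4, which also had the fewest counts and the highest mitochondrial share (7.30% of counts, against 1.91% to 5.94% in the other 15 libraries), to naive LPS library 2 and to experienced PBS library 3. Results that moved when these libraries were left out are given both ways. Mostly 4 libraries were left out together, experienced LPS 4, experienced PBS 3 and 4 and naive LPS 2. An earlier analysis of these data named these 4 least typical. As that choice came from these same data, fits without the 4 are not independent support. The experienced arm then kept PBS libraries 1 and 2 against LPS libraries 1 to 3, so its values rest on few libraries.

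RefSeq promoter windows (GRCm38.p6, 250 bases before to 50 bases from each start, on the strand of the gene) were at hand for 5 of the 7 members, 10 windows in all. They are shown for Lyl1 and Tal1, a related pair of which Lyl1 alone was called after LPS, and for Gata2, the member that rose. The distal start of Runx1, whose window held the most RUNX matches, is also shown. Capitals mark matches on either strand to GATAA (GATA factors), GGAAG (ETS factors) and TGNGGT, a loose form of the RUNX site with any base at N. GGAAG is a narrow form of the ETS site and other forms were not searched, so ETS sites may be missed. No match overlapped another.
Lyl1 (chr8:84701207-84701506, plus strand): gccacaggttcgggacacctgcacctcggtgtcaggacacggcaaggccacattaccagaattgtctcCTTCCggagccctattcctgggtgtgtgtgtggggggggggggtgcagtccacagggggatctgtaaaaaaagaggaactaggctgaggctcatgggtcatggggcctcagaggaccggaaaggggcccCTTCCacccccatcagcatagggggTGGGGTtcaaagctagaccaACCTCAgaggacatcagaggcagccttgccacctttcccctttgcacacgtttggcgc
Tal1, first start (chr4:115056176-115056475, plus strand): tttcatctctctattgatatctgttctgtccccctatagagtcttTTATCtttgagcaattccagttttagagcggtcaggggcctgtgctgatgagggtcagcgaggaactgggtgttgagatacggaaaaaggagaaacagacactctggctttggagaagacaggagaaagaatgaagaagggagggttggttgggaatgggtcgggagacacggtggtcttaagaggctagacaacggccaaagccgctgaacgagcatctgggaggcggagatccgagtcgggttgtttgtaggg
Tal1, second start (chr4:115057561-115057860, plus strand): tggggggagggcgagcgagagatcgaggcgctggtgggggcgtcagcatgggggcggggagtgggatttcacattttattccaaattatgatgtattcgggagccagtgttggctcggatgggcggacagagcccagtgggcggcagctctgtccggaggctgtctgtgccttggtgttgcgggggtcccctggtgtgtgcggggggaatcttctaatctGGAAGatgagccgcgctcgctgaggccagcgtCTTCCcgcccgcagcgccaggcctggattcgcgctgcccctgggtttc
Gata2, distal start (chr6:88193641-88193940, plus strand): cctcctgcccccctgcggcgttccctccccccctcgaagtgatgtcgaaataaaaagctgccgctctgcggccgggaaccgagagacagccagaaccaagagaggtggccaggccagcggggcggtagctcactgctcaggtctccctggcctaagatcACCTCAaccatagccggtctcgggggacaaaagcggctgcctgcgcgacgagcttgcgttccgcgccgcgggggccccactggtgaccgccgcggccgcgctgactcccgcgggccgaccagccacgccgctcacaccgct
Gata2, proximal start (chr6:88198414-88198713, plus strand): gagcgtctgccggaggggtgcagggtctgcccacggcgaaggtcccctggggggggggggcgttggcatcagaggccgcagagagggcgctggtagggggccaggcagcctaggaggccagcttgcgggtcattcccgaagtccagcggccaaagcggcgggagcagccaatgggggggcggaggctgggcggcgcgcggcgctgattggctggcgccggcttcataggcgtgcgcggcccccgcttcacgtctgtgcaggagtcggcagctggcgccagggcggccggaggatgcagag
Runx1, distal start (chr16:92826025-92826324, minus strand): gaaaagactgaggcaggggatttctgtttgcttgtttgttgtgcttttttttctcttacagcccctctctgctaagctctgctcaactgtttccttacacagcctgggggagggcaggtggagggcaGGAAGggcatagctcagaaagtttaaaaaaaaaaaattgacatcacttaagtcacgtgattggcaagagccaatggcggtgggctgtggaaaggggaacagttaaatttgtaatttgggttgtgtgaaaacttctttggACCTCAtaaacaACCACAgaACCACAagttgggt
The Lyl1 window held 2 ETS and 2 RUNX matches, the ETS matches beginning 182 and 53 bases before the start and the RUNX matches 28 and 8 bases before it. The first Tal1 window held a GATA match and the second held 2 ETS matches, while the Gata2 windows held 1 RUNX match between them. In the distal Runx1 window 3 RUNX matches began at bases 17, 29 and 37 counted from the start. Those at 29 and 37 have T at N of TGNGGT. The match at 17 and the RUNX matches of Lyl1 and Gata2 have G or A there. They would not match a form that requires T or C at N. Over the 10 windows of members, 2 held GATAA, 5 held GGAAG and 6 held TGNGGT, where the shares of all 32851 windows were 25.4%, 71.4% and 45.8%. The E-box letters CAGNTG, which are not capitalised, were in 5 of the 10 windows and in 51.4% of all. The core of the interferon-stimulated response element was in none of the 10 and in 3.44% of all. These matches describe the letters only.

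Levels per transcript length placed Lmo2 far above the rest in resting cells. In naive PBS libraries Lmo2 stood at 477 ± 53.8 TPM (SD, n = 4), and no other member's libraries overlapped it. Lyl1 (133 ± 23.0 TPM), Erg (126 ± 13.4), Runx1 (108 ± 37.1), Gata2 (96.5 ± 10.3) and Fli1 (84.1 ± 5.78) followed, each overlapping the next, and Tal1 was lowest at 46.6 ± 9.74 TPM and below Fli1 in all 4 libraries. The experienced PBS libraries had the same order of means, from Lmo2 at 454 ± 41.9 TPM to Tal1 at 52.7 ± 5.24 TPM, and again only the steps below Lmo2 and above Tal1 were free of overlap. After LPS the order changed in the middle. Gata2 was second by mean in both arms, at 161 ± 62.2 TPM in naive and 139 ± 20.5 TPM in experienced libraries. The means of Lyl1 and Erg came after that of Fli1, above Tal1 only. Within experienced LPS libraries, however, Fli1 exceeded Lyl1 in 1 of 4, library 4 (139.7 against 35.65 TPM). The lowest Lmo2 library of the naive LPS group (231 TPM) was below the highest Gata2 library (254 TPM), though Lmo2 exceeded Gata2 within each of the 4 libraries. Expressed as a share of the summed TPM of the 7 members, Gata2 made up 9.04% ± 0.499 after PBS and 19.3% ± 3.22 after LPS in naive mice, and 9.41% ± 1.23 and 16.3% ± 1.47 in the experienced groups (SD, n = 4). Lyl1 made up 12.4% ± 0.696 and 7.70% ± 2.61 in the naive groups and 11.8% ± 2.17 and 9.07% ± 3.61 in the experienced groups. TPM of Runx1 spread from 69.7 to 151 while its CPM (counts scaled to library size, not corrected for length) spread from 228 to 359. RSEM's average transcript length for Runx1, by which TPM is divided, ranged from 2826 to 4004 bases between libraries, so single genes are compared between groups below in CPM. Ratios within a library and sums over marker lists are in TPM and carry such differences in length.

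**Figure D1:**
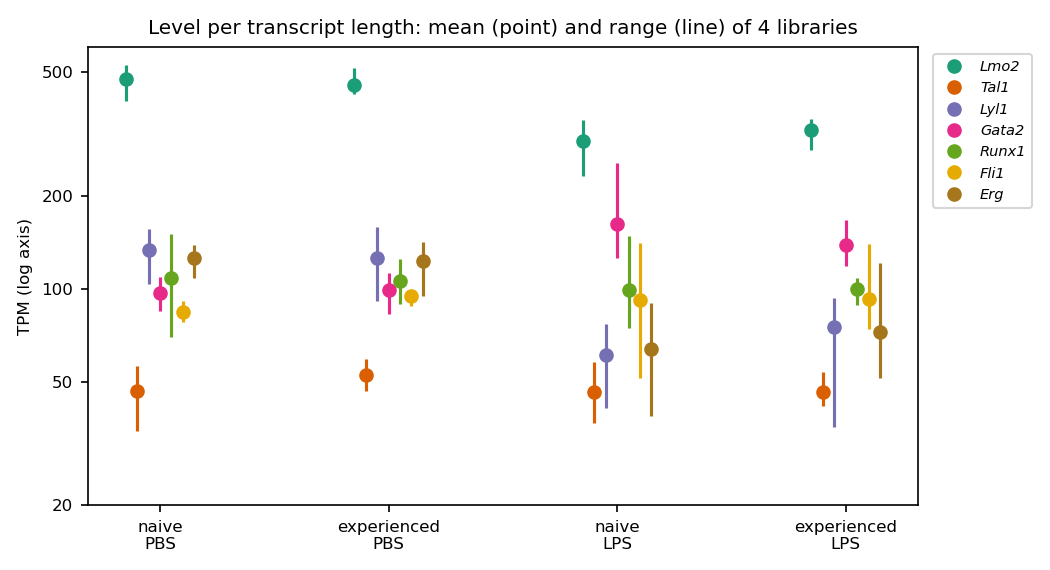
Level of each heptad member in TPM (log axis) in the 4 groups, with points at the mean and lines over the range of 4 libraries. Lmo2 is highest in every group, Tal1 has the lowest mean, and Gata2 moves from 96.5 to 161 TPM in naive and from 99.1 to 139 TPM in experienced libraries after LPS while Lyl1 and Erg move down.

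The comparison of LPS with PBS asks how the factors stood 24 h after an inflammatory challenge. In naive mice 4 of the 7 members passed the test, where Gata2 rose and Lyl1, Lmo2 and Erg fell, and Runx1, Tal1 and Fli1 did not pass. Over all genes tested, 21.7% were called in this comparison at a Benjamini-Hochberg adjusted p under 0.05 (edgeR's quasi-likelihood test), 9.81% higher and 11.9% lower. In experienced mice only Gata2 was called among the 7, against 12.8% of all genes, 4.52% higher and 8.26% lower. The libraries of the PBS and LPS groups did not overlap for 4 members in naive mice (the same 4) and for 3 in experienced mice (Gata2, Lmo2 and Runx1), where 29.3% and 17.3% of all genes did not overlap. The median log2 difference of the 7 members was 0.07 in naive and -0.07 in experienced mice, beside 0.02 and -0.02 over all genes. At an unadjusted p under 0.05 there were 4 members in naive and 3 in experienced mice, beside 35.4% and 27.9% of all genes. Leaving out the 4 least typical libraries kept experienced PBS libraries 1 and 2 and experienced LPS libraries 1 to 3. Under that fit 4 members were called in experienced mice, the same 4 as in naive mice and in the same directions. The share of all genes called went from 12.8% to 31.6% there and from 21.7% to 34.3% in naive mice.

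**Figure D2:**
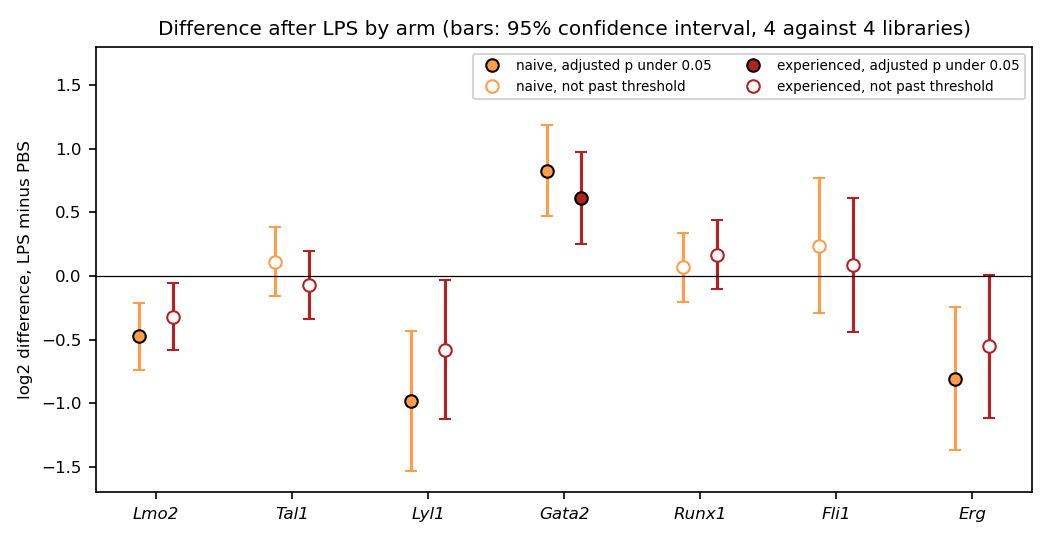
Log2 difference of each member between LPS and PBS libraries in naive and in experienced mice, with 95% confidence intervals from the edgeR fit; filled points passed an adjusted p of 0.05. Gata2 is above 0 in both arms, at 0.83 and 0.61, and Lyl1, Lmo2 and Erg are below 0 in both.

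Gata2, on chromosome 6 (88193891 to 88207032, plus strand, GRCm38), was the member that rose. Its CPM in naive PBS libraries 1 to 4 were 250.4, 252, 218 and 261, and in naive LPS libraries 595, 342, 386 and 419. Every naive LPS library was above every naive PBS library, with library 1 the highest of the 16. The log2 difference was 0.83 (SE 0.17, adjusted p = 0.00316), a 1.78-fold rise. Experienced PBS libraries held 218, 273, 201 and 277 CPM, and experienced LPS libraries 338, 325, 392 and 425 CPM. Again no library overlapped, and the log2 difference was 0.61 (SE 0.17, adjusted p = 0.0264), 1.53-fold. That call was lost without experienced PBS library 1 (adjusted p = 0.0878), experienced PBS library 3 (0.0739) or experienced LPS library 3 (0.0643), and with scaling by library size only (0.0501). Limma on log2(TPM + 1) called Gata2 in neither arm (adjusted p = 0.053 and 0.204). Markers of basophils and mast cells, in which Gata2 is also made, moved the same way. The list of these markers was chosen with earlier results of these data known, so its counts are description only. Beside 9.81% and 4.52% of all genes, 10 of 11 tested genes of that list (14 listed) rose in naive and 8 of 11 in experienced mice. Their summed level was 37.6 to 76.8 TPM in naive PBS, 290.2 to 655 TPM in naive LPS, 40.9 to 157 TPM in experienced PBS and 226 to 387 TPM in experienced LPS, with the mast cell genes Tpsab1 and Mrgprb1 listed at 0 in all libraries. Fcer1a, a chain of the IgE receptor, rose from 3.84 to 30.8 CPM in naive (adjusted p = 1.63e-05) and by 2.88 on the log2 scale in experienced mice (adjusted p = 5.43e-05). Ly6a, whose product is used in the sort, also rose, by 1.72 and 1.87 on the log2 scale (adjusted p = 0.00237 and 0.00207). The part of either in the Gata2 result was not tested, and in sorted bulk RNA a change in the mix of cells and a change of RNA per cell cannot be told apart.

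Of the related factors Tal1 and Lyl1, Lyl1 fell in naive mice and Tal1 passed in neither arm. Lyl1, a short gene on chromosome 8 (84701457 to 84704715, plus strand), stood at 184, 179, 184 and 168 CPM in naive PBS libraries 1 to 4 and at 86.7, 61.2, 114 and 99.8 CPM in naive LPS libraries. No naive LPS library reached the naive PBS range, and the log2 difference was -0.98 (SE 0.26, adjusted p = 0.0142), about 0.506 of the PBS level. In experienced PBS libraries Lyl1 was 184, 205, 133 and 127 CPM, and in experienced LPS libraries 130, 123, 132 and 49.2 CPM. Libraries 3 and 4 of the PBS group lay close to 3 of the LPS libraries, the groups overlapped, and the log2 difference of -0.58 (SE 0.26) did not pass (adjusted p = 0.155). Lyl1 has the most GC-rich transcript of the members (62.6% GC, above 98.5% of protein-coding genes), and its level followed the libraries' GC slope: the library with the lowest slope in each of the LPS groups (naive LPS 2 and experienced LPS 4) had the lowest Lyl1 there, and experienced PBS libraries 3 and 4, with slopes of -0.25 and -0.12, had the lowest Lyl1 of the PBS libraries. With the GC slope as a covariate, an alternative chosen after the data were seen, the log2 difference was -0.62 in naive (adjusted p = 0.000806) and -0.66 in experienced mice (adjusted p = 0.00031), so that Lyl1 was lower after LPS in both arms under that fit. Without experienced LPS library 4 the experienced value was -0.31 (adjusted p = 0.28), and without the 4 least typical libraries it was -0.58 (adjusted p = 0.00332). With the mitochondrial share as a covariate the values were -0.87 (adjusted p = 0.00115) and -0.69 (adjusted p = 0.00686).

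Tal1, on chromosome 4 (115056426 to 115071755, plus strand), held 149, 158, 159 and 139.6 CPM in naive PBS libraries and 175, 148, 177 and 154 CPM in naive LPS libraries. In experienced mice the values were 147, 146, 173 and 198 CPM after PBS and 153, 146, 149.7 and 184 CPM after LPS. The groups overlapped in both arms, and Tal1 had the narrowest range of the 7 over all libraries, 1.42-fold from lowest to highest. Its log2 differences were 0.11 (95% interval -0.15 to 0.38, adjusted p = 0.562) and -0.07 (-0.34 to 0.20, adjusted p = 0.766), intervals that leave out a change as large as that of Lyl1 in naive mice. The log2 ratio of Tal1 to Lyl1 in TPM lay between -1.58 and -1.46 in naive PBS and between -0.63 and -0.0032 in naive LPS libraries, without overlap. The difference of the means was 1.15 (exact two-sided permutation test, p = 0.0286, the smallest that 70 arrangements allow, adjusted p = 0.0857 over 12 ratio tests), or 0.71 with the GC slope removed from the ratio. In experienced mice the ratio overlapped between PBS (-1.76 to -0.62) and LPS (-1.07 to 0.60), with a difference of 0.61 (exact permutation p = 0.286, adjusted p = 0.429). The difference there was 0.20 without experienced LPS library 4, 0.63 without the 4 least typical libraries and 0.61 with the GC slope removed.

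**Figure D3:**
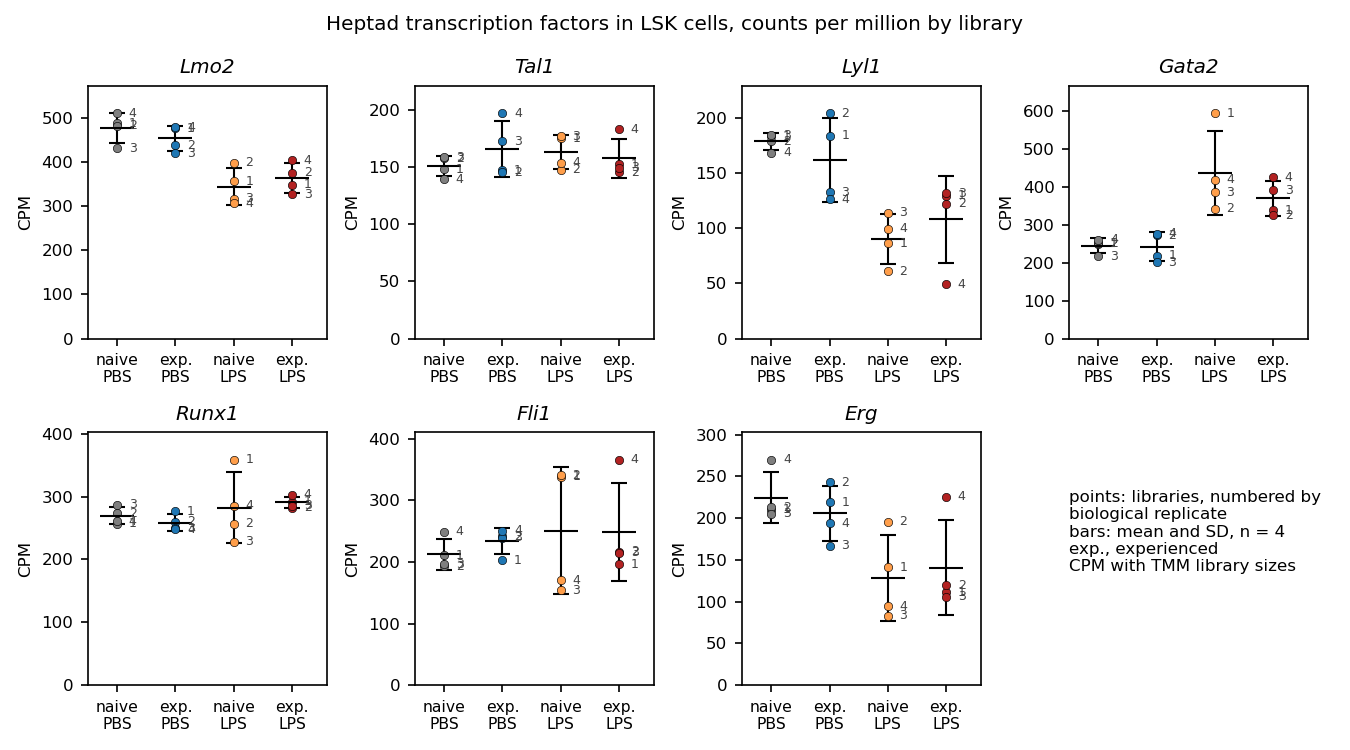
CPM of each heptad member in each library (points numbered by biological replicate), with the mean and SD of 4 libraries per group. Gata2 is higher and Lmo2 lower after LPS in both arms without overlap, Tal1 stays between 139.6 and 198 CPM, and experienced LPS library 4 is apart for Lyl1, Fli1 and Erg.

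**Figure D4:**
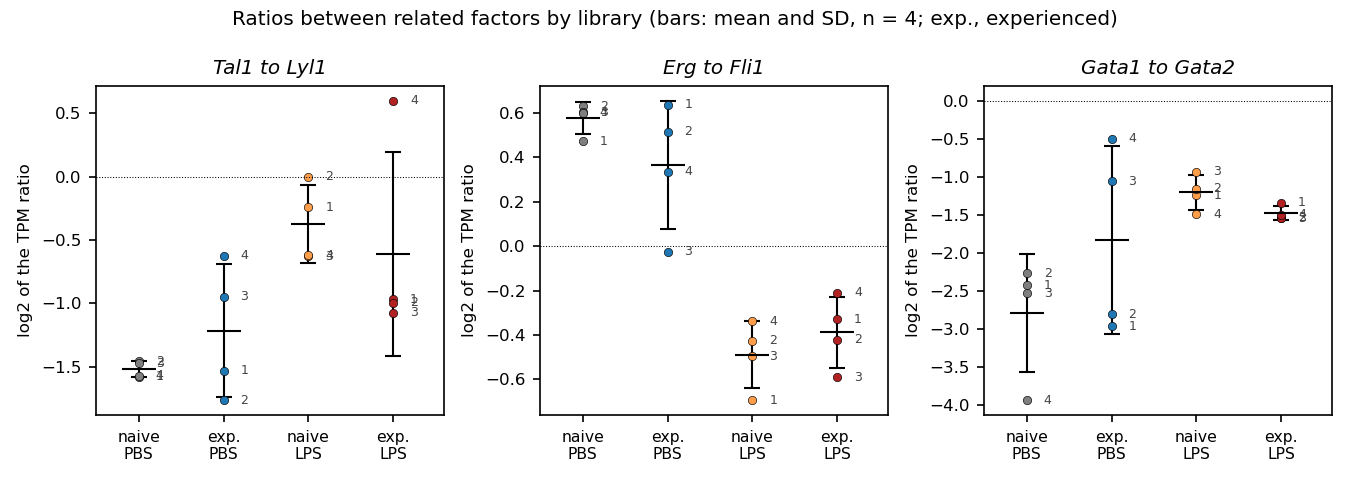
Log2 ratio in TPM of Tal1 to Lyl1, Erg to Fli1 and Gata1 to Gata2 in each library, with mean and SD of 4 libraries per group. The Erg to Fli1 ratio is between 0.47 and 0.63 in naive PBS and below 0 in all 8 LPS libraries.

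Lmo2, the bridging protein, on chromosome 2 (103957986 to 103981878, plus strand), fell in naive mice. Naive PBS libraries held 487, 482, 430.4 and 511 CPM and naive LPS libraries 356, 398, 316 and 306 CPM. Experienced PBS libraries held 476, 438, 419.7 and 479 CPM and experienced LPS libraries 348, 375, 326 and 403 CPM. All 8 LPS libraries were below all 8 PBS libraries. The log2 difference was -0.47 in naive mice (SE 0.12, adjusted p = 0.0133) and -0.32 in experienced mice (SE 0.12, adjusted p = 0.1), so the second did not pass. In experienced mice it passed with scaling by library size only (-0.42, adjusted p = 0.0243), with the GC slope as covariate (-0.32, adjusted p = 0.035) and without the 4 least typical libraries (-0.36, adjusted p = 0.0339). Offsets for GC content, chosen after the data were seen, gave -0.23 in naive mice, which ended that call (adjusted p = 0.423).

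Among the ETS members, Erg fell in naive mice and Fli1 did not pass in either arm. Erg, on chromosome 16 (95359169 to 95586593, minus strand), held 210.0, 213, 205 and 270.0 CPM in naive PBS libraries and 141, 196, 82.9 and 94.5 CPM in naive LPS libraries. The groups did not overlap, though naive LPS library 2 came close to the PBS range, and the log2 difference was -0.81 (SE 0.27, adjusted p = 0.04). This call was lost when any 1 of the 4 naive PBS libraries or naive LPS library 1, 3 or 4 was left out (adjusted p between 0.0601 and 0.111), and with GC content offsets (-0.69, adjusted p = 0.109). Experienced PBS libraries held 219, 243, 167 and 194 CPM and experienced LPS libraries 111, 120, 105 and 225 CPM, where library 4 alone was inside the PBS range. The log2 difference there was -0.55 (SE 0.27, adjusted p = 0.187), and without experienced LPS library 4 it was -0.85 (adjusted p = 0.018) and without the 4 least typical libraries -1.02 (adjusted p = 0.00112).

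Fli1, on chromosome 9 (32422204 to 32542861, minus strand), held 211, 193, 196 and 249 CPM in naive PBS libraries and 339, 341, 154 and 170.0 CPM in naive LPS libraries. The naive LPS libraries thus formed 2 pairs on either side of the PBS range. Experienced PBS libraries held 203, 242, 239.6 and 251 CPM and experienced LPS libraries 197, 217, 215 and 367 CPM, with library 4 apart. Log2 differences were 0.24 (95% interval -0.29 to 0.77) and 0.09 (-0.44 to 0.62), with adjusted p of 0.531 and 0.854. The libraries high for Fli1 after LPS (naive LPS 1 and 2 and experienced LPS 4) were also the highest of their groups for Erg, and 2 of the 3 had the lowest GC slopes of their groups. Within libraries, the ratio of the pair did not overlap between treatments in either arm. The log2 ratio of Erg to Fli1 in TPM for naive mice was 0.58 ± 0.07 after PBS and -0.49 ± 0.15 after LPS (SD, n = 4), a difference of -1.07 without overlap (exact permutation p = 0.0286, adjusted p = 0.0857). In experienced mice it was 0.37 ± 0.29 after PBS and -0.39 ± 0.16 after LPS (SD, n = 4), a difference of -0.75 without overlap (exact permutation p = 0.0286, adjusted p = 0.0857). Erg exceeded Fli1 in 7 of the 8 PBS libraries and in none of the 8 LPS libraries. None of the 12 ratio tests passed 0.05 after adjustment, and 4 against 4 libraries cannot give an unadjusted p below 0.0286.

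Runx1, on chromosome 16 (92601466 to 92826149, minus strand), held 257, 273, 287 and 261 CPM in naive PBS and 359, 257, 228 and 285 CPM in naive LPS libraries, which overlapped. In experienced mice it held 276, 259.7, 249.7 and 248 CPM after PBS and 292, 282, 285 and 303 CPM after LPS. The experienced groups did not overlap, but the difference was small, 0.17 on the log2 scale (SE 0.13, adjusted p = 0.433), and in naive mice it was 0.07 (SE 0.13, adjusted p = 0.753). The sign of the Runx1 difference in naive mice turned with upper-quartile scaling (-0.01), with library size only (-0.05), with limma on log2(TPM + 1) (-0.12) and without naive LPS library 1 (-0.07), and in experienced mice it turned with limma on log2(TPM + 1) (-0.08).

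**Figure D5:**
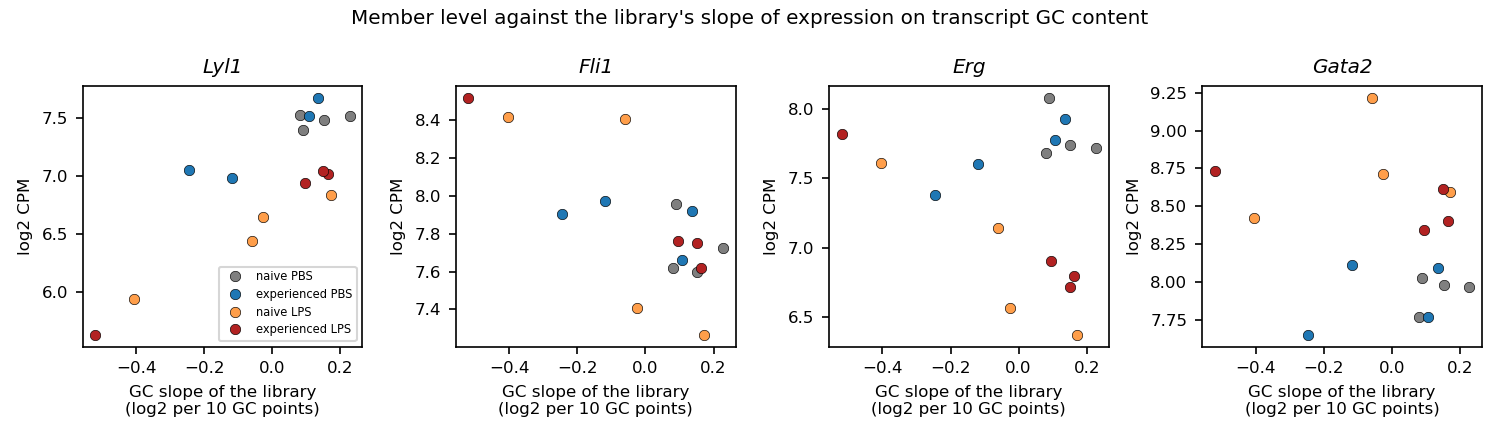
Log2 CPM of Lyl1, Fli1, Erg and Gata2 against the library's slope of expression on transcript GC content (log2 per 10 points of GC), 1 point per library, coloured by group. Lyl1 is lowest and Fli1 highest in experienced LPS library 4, which has the lowest slope (-0.52), and Gata2 is highest in naive LPS library 1.

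Among complex partners of the heptad, Tcf4 fell in both arms. Of 17 partners, all tested, 1 rose and 2 fell in naive mice, where 21.7% of all genes were called, and 0 rose and 1 fell in experienced mice, where 12.8% were called, with medians of 0.05 and -0.06 on the log2 scale. Tcf4, an E protein, fell by 0.54 (adjusted p = 0.0199) and by 0.63 (adjusted p = 0.0132) on the log2 scale. Zfpm1, the GATA cofactor FOG1, rose by 0.72 in naive mice (adjusted p = 0.0235), and Cbfa2t2, a corepressor, fell by 0.33 (adjusted p = 0.0466). The core partners gave log2 differences in naive and experienced mice of -0.15 and 0.07 for Cbfb, 0.47 and -0.09 for Ldb1, and 0.05 and -0.04 for Tcf3, none of which passed. Among the Id proteins, which bind E proteins and keep them off DNA, Id1 rose from a low level in both arms, from 0.672 to 5.11 CPM in naive (log2 difference 2.88, adjusted p = 0.00191) and from 1.39 to 8.14 CPM in experienced mice (2.56, adjusted p = 0.0054), and Id2 and Id3 did not pass.

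Among relatives of the members, Gata1 and Lmo4 rose and Runx2 and Gata3 fell in naive mice. Of 16 relatives, 15 were tested, of which 2 rose and 3 fell in naive mice and 1 rose and 2 fell in experienced mice. Of all genes tested, 9.81% were called higher and 11.9% lower with LPS in the naive arm. The experienced arm had 4.52% and 8.26%. These shares also stand beside the erythroid counts below. Runx2 fell in both arms, by 1.22 and by 0.96 on the log2 scale (adjusted p = 0.00015 and 0.00144), and Gata3 fell by 1.43 and by 1.28 (0.00938 and 0.0252). Lmo4, a LIM-only relative of Lmo2, rose by 1.33 and 0.69 on the log2 scale (adjusted p = 0.000593 and 0.0435). Spi1, the ETS factor PU.1, gave -0.31 and -0.03, which did not pass. Gata1 rose from 20.8 ± 8.37 to 99.2 ± 32.4 CPM in naive mice (SD, n = 4; log2 difference 2.25, adjusted p = 0.00411). In experienced mice it was 47.6 ± 40.2 CPM after PBS and 71.7 ± 5.73 CPM after LPS (SD, n = 4), a log2 difference of 0.60 that did not pass (adjusted p = 0.439). The log2 ratio of Gata1 to Gata2 in TPM was between -3.93 and -2.26 in naive PBS and between -1.49 and -0.93 in naive LPS, a difference of 1.58 without overlap (exact permutation p = 0.0286, adjusted p = 0.0857). In experienced PBS it split, at -2.96 and -2.80 in libraries 1 and 2 and -1.06 and -0.49 in libraries 3 and 4, and the difference after LPS was 0.35 (exact permutation p = 0.571, adjusted p = 0.623), or 1.41 without the 4 least typical libraries. Gata2 exceeded Gata1 in all 16 libraries. Erythroid markers, of which Gata1 is one, moved in the same libraries: 9 of 14 tested rose in naive and 1 of 14 in experienced mice, and their summed level was 309 to 539 TPM in naive PBS, 822 to 2043 TPM in naive LPS, 329 to 2630.0 TPM in experienced PBS and 626 to 1914 TPM in experienced LPS. Hba-a1 was listed at 0 in all naive PBS libraries and at no more than 0.25 TPM in naive LPS libraries. No tested globin gene of the list passed in naive mice. The part of the erythroid markers in the Gata1 result was not tested.

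Genes that the heptad is known to bind near passed in both directions. Of 25, all tested, 5 rose and 6 fell in naive mice and 2 rose and 4 fell in experienced mice. Their medians were -0.29 and -0.03 on the log2 scale. For this and the lists below, the shares over all genes were 9.81% higher and 11.9% lower in naive mice. In experienced mice these shares were 4.52% and 8.26%. All these lists were chosen with earlier results of these data known, so their counts are description only. Mecom, a transcription factor of stem cells, fell by 2.03 in naive (adjusted p = 1.11e-05) and by 1.84 in experienced mice (4.64e-05). Cd34 fell by 1.18 and by 0.90 on the log2 scale (adjusted p = 0.000224 and 0.00265). Smad6, an inhibitory SMAD, fell by 1.85 in naive mice (adjusted p = 0.00191). Hhex, a homeobox factor, fell in both arms, by 0.49 in naive (adjusted p = 0.0181) and by 0.75 in experienced mice (0.00214). The megakaryocytic genes Itga2b and Gp5 rose in both, Itga2b by 1.21 and 1.82 (adjusted p = 0.00281 and 0.000265) and Gp5 by 0.65 and 1.05 (0.0109 and 0.000699). Kit, the stem cell factor receptor and a sort marker, gave -0.43 and -0.44 and did not pass (adjusted p = 0.0671 and 0.0835). Stem cell genes fell beside Lyl1, Lmo2 and Erg: 9 of 14 in naive and 6 of 14 in experienced mice, and none rose, with a summed level of 303 to 381 TPM in naive PBS against 94.9 to 156 TPM in naive LPS, and 241 to 390.5 TPM against 100.5 to 215 TPM in the experienced groups. Lymphoid-primed genes also fell, 9 of 13 and 7 of 13, with summed levels of 560.2 to 716 against 198 to 427 TPM and 512 to 841 against 288 to 306 TPM. Of endothelial markers 5 of 9 tested fell in naive and 4 of 9 in experienced mice. Their summed level went from 191 to 248 TPM to 78.2 to 109 TPM and from 122 to 231 TPM to 98.5 to 122 TPM. Egfl7, Pecam1 and Tie1 made up most of that sum, with means of 103, 45.5 and 36.2 TPM in naive PBS. In each group 7 or 8 of the 14 listed endothelial markers had a median under 1 TPM, and Lyve1 was listed at 0 in every library. Megakaryocyte markers gave 3 higher and 1 lower of 11 tested in naive mice, then 3 and 0 in experienced mice, neutrophil and monocyte markers 0 and 2 of 10, then 0 and 1, lineage markers 1 and 2 of 7, then 0 and 2, sort markers 1 and 1 of 4, then 1 and 2, and stroma 0 of 3 in both. The part of these in the fall of the members was not tested.

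Experience of hMLL-AF9 in the marrow was the second question. Between experienced and naive libraries no member passed the test after PBS, after LPS or averaged over both, and nor did any other gene (0% called by edgeR in each). At an unadjusted p under 0.05 there were 451, 491 and 294 genes, with no member among them, DESeq2 called 2 genes in each of the 3 comparisons and limma called none. Without the 4 least typical libraries edgeR called 1 gene after PBS, 223 after LPS and 1 on average, again with no member among them. The libraries of the 2 arms overlapped for all 7 members after PBS and after LPS, where 4.04% and 1.62% of all genes did not overlap. After PBS the log2 differences of the members ran from -0.14 for Lyl1 (95% interval -0.69 to 0.40) to 0.14 for Fli1 (-0.39 to 0.67). After LPS they ran from -0.24 for Gata2 (-0.59 to 0.12) to 0.26 for Lyl1 (-0.29 to 0.81). Averaged over both treatments, the tightest intervals were those of Lmo2 (0.00, from -0.18 to 0.19), Tal1 (0.04, from -0.15 to 0.23) and Runx1 (-0.01, from -0.20 to 0.18), and the widest were those of Erg (0.00, from -0.39 to 0.40) and Lyl1 (0.06, from -0.33 to 0.44).

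Whether the LPS response of the members differed between the arms was tested by the interaction. No member and no other gene passed (0% called by edgeR, 695 genes and no member at an unadjusted p under 0.05, 1 gene called by DESeq2 and 0 by limma). Responses of Gata2, Lyl1, Lmo2 and Erg were each nearer 0 in experienced mice, with interaction values of -0.22, 0.40, 0.16 and 0.25 on the log2 scale. Their 95% intervals were -0.72 to 0.29, -0.37 to 1.17, -0.22 to 0.53 and -0.54 to 1.05, and the adjusted p of all 7 members lay between 0.884 and 0.945. The sign turned for Erg without experienced LPS library 4 (-0.05) and for Lyl1 with the GC slope as covariate (-0.04). The smaller number of members called in experienced mice is therefore not shown to be a difference between the arms.

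Genes whose log2 CPM followed each member most closely over the 16 libraries were taken by Pearson r among 10247 genes, as a description of libraries that share treatment, depth and base composition. For Gata2 these were the interferon-stimulated genes Ly6e (r = 0.955), Irf7 (0.941) and Zbp1 (0.940). Lyl1 was closest to Mxd3 (0.994), Homer3 (0.976) and Limd2 (0.976), and Lmo2 to Txndc16 (0.962), Nap1l3 (0.959) and Tcf7l2 (0.959). For Erg they were Rfx3 (0.968), Stap1 (0.958) and Gabarapl1 (0.955), and for Fli1 Msn (0.948), Tab2 (0.928) and Cdc40 (0.926). Tal1 was closest to Sun1 (0.932), Abca3 (0.919) and Clasp1 (0.918). Runx1 had the weakest likeness, with Stx3 (0.781), Nfkb2 (0.710) and Muc13 (0.679).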

How the data were processed

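Per the submitters' processing notes, the authors used Trim Galore 0.6.7, STAR 2.7.10a and RSEM 1.3.1 with GRCm38. Of the annotation and strand setting nothing is stated (not given in the sources used here). Each of the 16 deposited tables holds RSEM expected counts (estimates that need not be whole), TPM and an average transcript length for every gene, per the file headers. Whether the 2 technical replicates that the labels list for each biological replicate were merged is unknown. A droplet library kit is named in the labels, but the tables hold 1 value per gene and library and were treated as bulk. Groups and replicate numbers came from the sample titles, and 0 columns were left unmatched. Symbols, coordinates and GC content came from GENCODE M21, which matched 45143 of 45706 identifiers.

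Expected counts were rounded. The filter filterByExpr left 15186 genes and 99.9% of counts, libraries were scaled by TMM, and edgeR 4.0.16 (R 4.3.3) fitted 4 group means by quasi-likelihood, with Benjamini-Hochberg adjustment over all genes. The biological coefficient of variation (common) was 0.306, there were 12 residual degrees of freedom, and the median SE of a log2 LPS difference was 0.25. Ratios are log2 of (TPM + 0.1) over (TPM + 0.1), tested by exact permutation of 4 against 4 libraries. Libraries of a group differed beyond sampling noise (chi-square per gene at least 8.20). DESeq2 1.42.0, limma 3.58.1 on log2(TPM + 1), other scalings, filters and covariates, and leaving out each library were alternatives. Named beside the members are Gata1, Cbfb, Ldb1, Tcf3, Spi1, Kit, Ly6a, Cd34 and up to 4 genes per list with the lowest adjusted p, and, for likeness, the 3 genes of highest Pearson r whose mean log2 CPM reached 2. Tpsab1, Mrgprb1, Hba-a1 and Lyve1 were named after their values were seen. A gene that the rule names is not reported here. The members and lists were chosen with earlier results of these data known.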

Additional observations from a re-analysis of the deposited data

Results flagged for a closer look

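In 40 sets of 4 libraries (7 members and 3 ratios in 4 groups), 6 had 1 value far from the other 3 by Dixon's criterion, which chance gives in about 1 in 20 sets. Of the 6, 4 came from experienced LPS library 4, which had the lowest GC slope (-0.52), the highest mitochondrial share (7.30%) and the fewest counts. In that library Lyl1 was 49.2 CPM against 123 to 132 in the other 3, Fli1 was 367 CPM against 197 to 217, and Erg was 225 CPM against 105 to 120. Its log2 ratio of Tal1 to Lyl1 was 0.60, where the other 3 gave -1.07 to -0.97. Naive PBS library 4 held the other two values: Erg was 270.0 CPM there against 205 to 213, and the log2 ratio of Gata1 to Gata2 was -3.93 against -2.53 to -2.26. The cause was not tested.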

How the results depend on the processing

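The count of members called for LPS in naive mice (4) was 3 or 4 when any 1 library was left out and 3 or 4 under every other alternative except GC content offsets (chosen after the data were seen), which left 2, Gata2 and Lyl1. In experienced mice the count of 1 was 0 with limma on log2(TPM + 1), 2 with the mitochondrial share as covariate, 2 with GC content offsets, 4 with the GC slope as covariate, 4 without the 4 least typical libraries, and 0 to 2 when 1 library was left out. With library size only it stayed 1, but was Lmo2 in place of Gata2. For the other 4 comparisons it was 0 under all alternatives run. Replicate numbers did not pair the libraries (no pair of groups had all same-number correlations over 0.1), and with the replicate number as a block the counts stayed at 4 and 1, while all genes called went from 3293 to 2920 in naive and from 1940 to 1592 in experienced mice. Calls over all genes moved more: limma gave 1550 and 922, leaving out 1 library 2089 to 4398 and 1065 to 3157, leaving out the 4 least typical libraries 5433 and 5006, fitting the experienced groups alone 1179, and in experienced mice the mitochondrial share and GC slope covariates 2965 and 3456. Of the naive calls 45.2% were higher with TMM, 35.0% with upper-quartile factors and 31.4% with library size only, which shifted the median of all genes by -0.11; in experienced mice the share was 35.4% with TMM and 22.0% with library size only. Ratio differences kept their direction except 3. The Tal1 to Lyl1 ratio between the arms after PBS (0.30) was -0.13 without the 4 least typical libraries and -0.035 with the GC slope removed, the Gata1 to Gata2 ratio there (0.96) was -0.10 without those 4, and the Gata1 to Gata2 ratio for LPS in experienced mice (0.35) ranged from -0.026 (without experienced PBS library 1) to 0.80 when 1 library was left out. Between the arms, all genes called after PBS, after LPS and averaged went from 0 to 1, 223 and 1 without the 4 least typical libraries and to 2, 2 and 2 with DESeq2, which called 1 for the interaction. The causes were not tested. Every member had at least 358 expected counts in each library.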
